A study of Mesocricetus auratus with 6 samples.

Results

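The hypothalamus holds small groups of neurons that each make their own peptide, and a dissection of the suprachiasmatic nucleus (SCN) takes some tissue from around it. The genes described are 10 that encode peptides of those surrounding groups: *Pmch*, *Pomc*, *Agrp*, *Npy*, *Oxt*, *Crh*, *Trh*, *Hcrt*, *Cartpt* and *Npvf*. They were chosen by name, as the rows that read which hypothalamic tissue each SCN pool held, and they were selected on measured values of SCN against cortex and of *duper* SCN over wild-type SCN. Their values in those comparisons are therefore a description, with no test. Of the 10 genes, 7 had a row among the 31593 genes measured, and *Agrp*, *Oxt* and *Trh* were not analysed here.

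RNA-seq was made of cortex, SCN and liver of Syrian hamsters at CT15, in the early subjective night. The *duper* hamsters, 4 females, carry a frameshift in *Cry1* that leaves no functional CRY1, and the wild-type hamsters were 2 males and 2 females without it. Cortex RNA of a genotype's 4 hamsters was combined into 1 library and their SCN RNA into another. Liver had 4 libraries per genotype but 1 deposited sample, and how that sample was made from them is not stated. Each gene thus had 1 value for each genotype and tissue. Both genotypes were of the Lakeview (LVG) ecotype, and the *duper* line had been bred apart from the wild-type stock. Ages were not given in the sources used here. The total estimated count, the number of fragments assigned to transcripts, was 6788947 in wild-type cortex, 29936218 in wild-type SCN, 10391925 in *duper* cortex and 7248840 in *duper* SCN. Wild-type SCN was thus 4.13 times as deep as *duper* SCN, and 1 fragment moved a level in *duper* SCN by more. In liver the totals were 69839214 and 85748562.

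Levels are given as TPM, a relative abundance of transcripts that is scaled for transcript length and library total and can be set side by side between genes. Each level rests on 1 library, so the spread between pools or hamsters was not measured. The 95% intervals given are exact ones for the number of fragments (Poisson for a level, Clopper-Pearson for a ratio of 2 libraries) and cover counting error only. In bulk tissue fewer cells of a type and less RNA per cell cannot be told apart. Genotype, breeding line, the sex of the pooled hamsters and the cut of each dissection also cannot be told apart.

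The labels were first read against genes that mark each tissue. *Cry1* was lower in *duper* than in wild type in each tissue, at 8.14 TPM against 22.9 TPM in the SCN. Of the SCN markers listed, 8 of 11 had a row, and the peptide genes *Avp*, *Vip* and *Grp* had none. The summed level of the 8 was 124 TPM in wild-type SCN and 87.5 TPM in *duper* SCN, against 23.6 TPM and 26.2 TPM in the cortex of each. The genes of cortical projection neurons summed to 1085 TPM in wild-type cortex and 986 TPM in *duper* cortex, and to 25.4 TPM and 21.4 TPM in the SCN. Both SCN pools therefore carried SCN genes above cortex, with little RNA of cortical projection neurons. The liver libraries, wild type first, had 128 TPM and 138 TPM of the SCN list, of which *Rgs16* was 125 TPM and 135 TPM.

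The peptide genes divide by the region that is best known for them. Neurons of the lateral hypothalamus make melanin-concentrating hormone from *Pmch* or the orexins from *Hcrt*, and both peptides act on feeding and on sleep and waking. The arcuate nucleus holds neurons that cut the *Pomc* product into melanocortins, which curb feeding, and others that release the feeding-promoting peptides of *Npy* and *Agrp*. The paraventricular nucleus makes the products of *Crh*, *Trh* and *Oxt*, and the dorsomedial nucleus the RFamide-related peptides of *Npvf*, while *Cartpt* is used in several of these nuclei. *Npy* and *Crh* are also made by interneurons of the cortex.

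*Pmch* was measured at 0.622 TPM in wild-type cortex, from 1 count, and at 58.2 TPM in wild-type SCN, from 471 counts. *Duper* cortex had 0 counts of it and *duper* SCN 11.4 TPM, from 21.9 counts. Both SCN pools thus held *Pmch* RNA that was at or near the limit of detection in cortex. The level in wild-type SCN was 93.6 times that in cortex (95% interval 16.7 to 3705), and in *duper* it was at least 9.43-fold higher in SCN against the 3 counts that an observed 0 still allows, or at least 7.04-fold, the lower end of the 95% interval, with counting error in both libraries.

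Between the SCN pools *Pmch* was 5.09 times as high in wild type as in *duper* (95% interval 3.32 to 8.20), a log2 ratio of TPM plus 1 of −2.25. At the depth of *duper* SCN the wild-type level would be worth 112 counts, and 21.9 were seen. *Pmch* was the most abundant of the 7 genes in wild-type SCN and the fourth in *duper* SCN. Its share of their summed TPM was 45.6% in wild-type SCN and 13.1% in *duper* SCN.

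*Hcrt*, the orexin precursor, had 14 counts in wild-type SCN, a level of 2.39 TPM (95% interval 1.31 to 4.01), and 0 counts in both cortex libraries and in *duper* SCN. At the depth of *duper* SCN that level would be worth 3.32 counts, and at the depth of wild-type cortex 2.78 counts. So *Hcrt* was detected in wild-type SCN, and a difference from the shallower libraries was barely or not detectable. The 95% interval of *duper* over wild type in the SCN reached up to 1.27 and so included 1, as a description of counting error only. No fold is given against cortex, where 3 counts would already be 2.58 TPM in the wild-type library and 1.67 TPM in the other.

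*Pomc* had 0.442 TPM in wild-type cortex and 6.17 TPM in wild-type SCN, from 1 and 70 counts. In *duper* it had 2.60 TPM in cortex and 17.4 TPM in the SCN, from 9 and 47 counts. The counting intervals of the 2 SCN levels ran from 4.81 to 7.79 TPM in wild type and from 12.8 to 23.1 TPM in *duper*. *Pomc* was 14.0 times as high in SCN as in cortex in wild type (95% interval 2.42 to 559) and 6.68 times in *duper* (3.24 to 15.5).

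*Pomc* thus went the other way from *Pmch* between the SCN pools, at 2.82 times the wild-type level in *duper* (95% interval 1.91 to 4.14), a log2 ratio of 1.36. In cortex the ratio of *duper* over wild type was 5.89, but with 1 count in wild type its interval ran from 0.816 to 258. The estimated counts of *Pomc* came from 1 of its 2 annotated transcripts in each library but *duper* SCN, where the other held 12.5% of them.

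*Npy* encodes neuropeptide Y and differed from the other members in its tissue. Its level was 253 TPM in wild-type cortex and 6.99 TPM in wild-type SCN, from 323 and 45 counts. In *duper* the levels were 125 TPM in cortex and 17.0 TPM in the SCN, from 247 and 26 counts. Cortex was above SCN in both genotypes, by 36.2 times in wild type (95% interval 26.4 to 50.6) and 7.35 times in *duper* (4.90 to 11.5). Which tissue the *Npy* RNA of the SCN pools came from was not tested.

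Between genotypes *Npy* was 2.44 times as high in *duper* SCN as in wild-type SCN (95% interval 1.44 to 4.03) and 2.02 times as high in wild-type cortex as in *duper* cortex (1.71 to 2.39). On the log2 scale with 1 TPM added these are 1.17 and −1.01. *Npy* made up 93.5% of the summed TPM of the 7 genes in wild-type cortex and 85.4% in *duper* cortex, and 5.48% and 19.5% in the SCN. Genes of striatal neurons also differed between the cortex pools: 6 of the 7 listed were over 2-fold lower in *duper*, none of the 7 was at 0 (3.58% of all genes expressed were that much lower), and their summed TPM was 423 in wild-type cortex and 165 in *duper* cortex, 143 in wild-type SCN and 134 in *duper* SCN. The most abundant, *Ppp1r1b*, which encodes the phosphatase inhibitor DARPP-32, had 227 TPM in wild-type cortex and 104 TPM in *duper* cortex. Striatal tissue can hold *Npy* interneurons, and its part in the cortical *Npy* levels was not tested.

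*Cartpt*, the precursor of the CART peptides, had 9.53 TPM in wild-type cortex and 45.6 TPM in wild-type SCN, from 17 and 403 counts. The *duper* libraries had 10.0 TPM in cortex and 31.6 TPM in the SCN, from 27 and 67 counts. SCN was above cortex by 4.79 times in wild type (95% interval 2.95 to 8.30) and 3.16 times in *duper* (1.99 to 5.14), and the cortex pools were within counting error of each other. Between the SCN pools *Cartpt* was 1.44 times as high in wild type (1.11 to 1.90), a log2 ratio of −0.52 and short of 2-fold. Set against the summed SCN markers, which lack *Avp*, *Vip* and *Grp*, *Cartpt* was at 0.368 of their TPM in wild-type SCN and 0.361 in *duper* SCN. *Pmch* was at 0.469 and 0.131, *Pomc* at 0.0498 and 0.199, *Npy* at 0.0564 and 0.195 and *Crh* at 0.0669 and 0.108. Of the marker sum, *Nms* held 33.5 TPM in wild-type SCN and 13.4 TPM in *duper* SCN, from 94 and 9 counts. The shares thus depend in part on *Nms*. The shorter of the 2 annotated *Cartpt* transcripts held 84.8% of its counts in wild-type SCN and 76.4% in *duper* SCN.

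*Crh* encodes corticotropin-releasing hormone, which drives the stress axis. It had 7.12 TPM in wild-type cortex, 8.29 TPM in wild-type SCN, 8.12 TPM in *duper* cortex and 9.47 TPM in *duper* SCN, from 33, 192, 57 and 52 counts. The counting intervals of the 4 levels overlapped, and the ratio of SCN over cortex was 1.16 in wild type (95% interval 0.801 to 1.74) and 1.17 in *duper* (0.785 to 1.73). The ratio of *duper* over wild type in the SCN was 1.14 (0.824 to 1.56). *Crh* was thus measured at similar levels in SCN and cortex. Which tissue the *Crh* RNA of the SCN pools came from was not tested. *Npvf* had 0 counts in both wild-type brain libraries, 2 in *duper* cortex and 1 in *duper* SCN, so no fold is given for it. The floor of 3 counts was 0.332 TPM in wild-type SCN and 1.40 TPM in *duper* SCN.

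**Figure D1:**
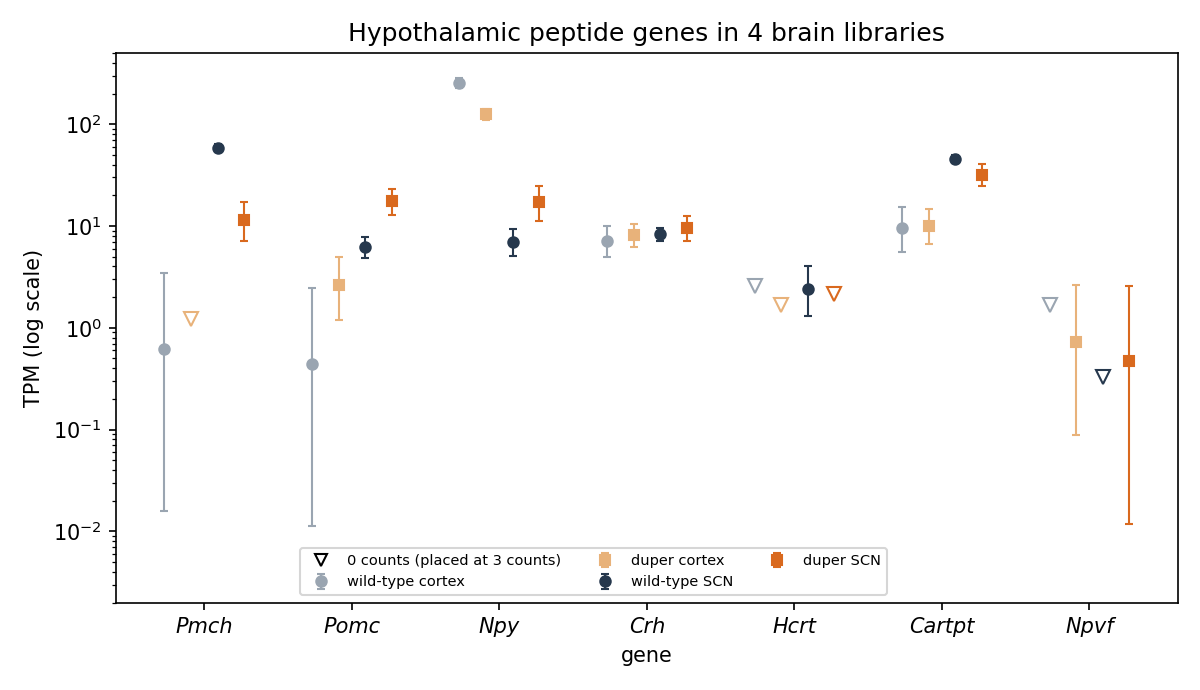
Level of each peptide gene in the 4 brain libraries, as TPM on a log axis, with 1 point for each library and 95% Poisson intervals of its count as bars; open triangles mark libraries with 0 counts, placed at the level of 3 counts. *Pmch* stands at 58.2 TPM in wild-type SCN and 11.4 TPM in *duper* SCN, *Npy* is highest in cortex, and *Crh* is level across the libraries.

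The order of the levels differed between the SCN pools. In wild type it was *Pmch*, *Cartpt*, *Crh*, *Npy*, *Pomc*, *Hcrt* and *Npvf*, and the intervals of *Crh* (7.16 to 9.55 TPM), *Npy* (5.10 to 9.36 TPM) and *Pomc* overlapped. In *duper* it was *Cartpt* (24.5 to 40.2 TPM), *Pomc*, *Npy* (11.1 to 25.0 TPM), *Pmch* (7.17 to 17.3 TPM), *Crh* (7.07 to 12.4 TPM), *Npvf* and *Hcrt*. There the intervals of *Pomc*, *Npy* and *Pmch* overlapped, as did those of *Npy*, *Pmch* and *Crh* and those of *Cartpt* and *Npy*. Together the 7 genes came to 128 TPM in wild-type SCN and 87.4 TPM in *duper* SCN, and to 271 TPM and 147 TPM in cortex, most of it *Npy*.

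Counted past 2-fold on log2 of TPM plus 1, among genes whose mean over the 2 libraries reached 1 TPM, 6 of the 7 genes entered the wild-type comparison of SCN with cortex. Of these, 4 were higher in SCN (*Pmch*, *Pomc*, *Hcrt* and *Cartpt*), beside 8.66% of 18370 genes, and 1 was lower (*Npy*), beside 9.14%. In *duper*, 5 entered: 3 were higher in SCN (*Pmch*, *Pomc* and *Cartpt*), beside 7.36% of 18347 genes, and 1 was lower (*Npy*), beside 8.92%. Between the SCN pools, 6 entered: 2 were higher in *duper* (*Pomc* and *Npy*), beside 3.15% of 18305 genes, and 2 were lower (*Pmch* and *Hcrt*), beside 3.59%. Between the cortex pools, 4 entered: 1 was higher in *duper* (*Pomc*), beside 3.77% of 18096 genes, and 1 was lower (*Npy*), beside 3.58%. Since the genes were selected on the comparisons of SCN, nothing is read from those shares. The place of *Hcrt* rests on 14 counts in the deepest of the brain libraries, and that of *Pomc* in cortex on 9 counts against 1. With TMM-normalized CPM in place of TPM, 1 gene was higher in *duper* SCN (*Pomc*), beside 0.486% of all genes, and 1 lower (*Pmch*), beside 0.880%. *Npy*, at a log2 ratio of 0.77, and *Hcrt*, at −0.41, were then short of 2-fold. The same 1 was added to CPM, where the values of these genes are lower than in TPM, so it weighs more. With TPM divided by the TMM factors 2 genes were higher in *duper* SCN, beside 2.63% of all genes, and 2 lower, beside 3.20%. *Npy* was then at 1.12 and *Hcrt* at −1.43.

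**Figure D2:**
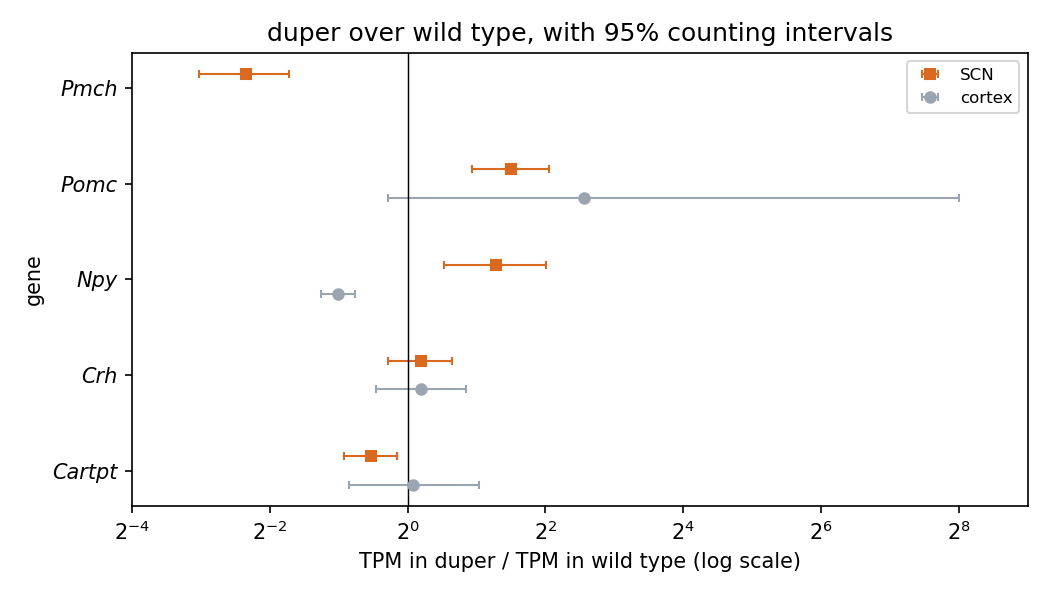
Ratio of TPM in *duper* over wild type for 5 peptide genes in SCN and in cortex, on a log axis, with 1 point for each pair of libraries and Clopper-Pearson 95% intervals as bars; *Pmch* has no point in cortex, where it had 1 count in wild type and 0 in *duper*. In the SCN *Pmch* lies below 1 and *Pomc* and *Npy* above it, at 2.82 and 2.44.

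Read assignment bears on 1 of these genes. *Pmch* overlaps a neighbouring gene of the annotation, LOC101830314, and had fractional counts, as arise when fragments match more than 1 transcript. The neighbour had 0.244 TPM in wild-type SCN and 0.341 TPM in *duper* SCN, far below *Pmch*. Whether strand was used in the assignment is not given in the sources used here, so fragments of the overlap cannot be told apart. *Pomc*, *Npy*, *Crh*, *Hcrt*, *Cartpt* and *Npvf* did not overlap the genes next to them.

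For the 4 genes with at least 50 counts in an SCN library, the most like profiles over the 6 libraries were sought among 15743 other genes, as the smallest distance between mean-centred log2 of TPM plus 1. Nearest to *Pmch* was *Nms*, at a distance of 0.89, which encodes neuromedin S, a peptide of SCN neurons. *Nms* had 0 counts in cortex and liver, 33.5 TPM in wild-type SCN and 13.4 TPM in *duper* SCN, from 94 and 9 counts. LOC101824227 (32.2 TPM and 25.0 TPM in the 2 SCN pools) and the cholecystokinin receptor gene *Cckar* (10.4 TPM and 7.45 TPM) came next, at 1.53 and 1.98.

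Nearest to *Pomc* were *Lhx8*, a transcription factor gene of forebrain cholinergic neurons (distance 0.72), the melanocortin receptor gene *Mc4r* (0.86) and the natriuretic peptide gene *Nppa* (0.88). *Lhx8* had 5.16 TPM in wild-type SCN and 12.9 TPM in *duper* SCN, *Mc4r* 4.49 TPM and 9.12 TPM, and *Nppa* 4.15 TPM and 7.83 TPM. *Crh* was nearest to *Nisch* (0.10), *Tomm34* (0.12) and *Dcx* (0.16), which are near level across the brain libraries. *Cartpt* was nearest to *Fxyd6* (0.47), *Smim10l2b* (0.53) and *Tmem255a* (0.58), which were about as high in both SCN pools.

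The receptors of these peptides and the enzymes that process them are not among the genes selected on these comparisons, although earlier results of these data were known when the lists were fixed. They were tested for SCN against cortex with edgeR's quasi-likelihood test on the 4 brain libraries and genotype as a term. The 2 genotypes stand in for replicates of a tissue, and SCN and cortex were taken from the same animals, so a p-value measures only the spread between these pools. Each gene had 1 residual degree of freedom of its own. The rest of its spread was borrowed from all genes, at a median of 12.4 prior degrees of freedom. Calls needed a log2 fold change beyond 0.58 in either direction and, after Benjamini-Hochberg adjustment, a p under 0.05. Of 16903 genes tested, 1569 (9.28%) were called higher in SCN and 1973 (11.7%) lower. The median log2 fold change of all genes was 0.02. With library size in place of TMM, 2431 genes were called higher in SCN and 1439 lower.

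Of the 15 receptor genes, 13 were tested. *Mc3r*, *Mc4r*, *Npy2r*, *Crhr2*, *Trhr*, *Hcrtr1*, *Hcrtr2* and *Npffr1*, 8 in all, were called higher in SCN, and *Mchr1*, *Npy1r* and *Crhr1*, 3 in all, lower. Their median log2 fold change was 1.67. *Mc5r* and *Npffr2* had too few counts. DESeq2 called 8 receptor genes in either direction, and a fit of all 6 libraries called 6. When 1 brain library at a time was left out, from a fit that also held the liver, the receptor genes called numbered 1 without wild-type cortex or wild-type SCN, 2 without *duper* cortex and 4 without *duper* SCN. From the brain libraries alone with tissue as the only term, an alternative chosen after seeing the data, leaving out 1 at a time gave 8 to 11.

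*Trhr*, the receptor for thyrotropin-releasing hormone, had 0.413 TPM and 2.46 TPM in the wild-type and *duper* cortex and 16.0 TPM and 23.9 TPM in the SCN of each, a log2 fold change of 3.80 (standard error 0.32, edgeR adjusted p = 5.93e-07, higher in both genotypes). *Npy2r*, a receptor found on terminals that release neuropeptide Y, had 1.49 TPM and 1.10 TPM in cortex and 8.14 TPM and 9.67 TPM in SCN, a log2 fold change of 2.80 (standard error 0.30, edgeR adjusted p = 6.98e-06). *Mc4r*, through which melanocortins curb feeding, had 0.831 TPM and 2.06 TPM in cortex and 4.49 TPM and 9.12 TPM in SCN (2.25, standard error 0.51, edgeR adjusted p = 0.00363). The orexin receptor gene *Hcrtr2* had 0.889 TPM and 0.472 TPM in cortex and 2.60 TPM and 4.46 TPM in SCN (2.38, standard error 0.44, edgeR adjusted p = 0.000840). For each of these genes both SCN levels lay above both cortex levels.

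*Mchr1*, the receptor for melanin-concentrating hormone, went the other way from its ligand gene. It had 18.0 TPM and 16.1 TPM in the wild-type and *duper* cortex and 11.4 TPM and 7.41 TPM in the SCN of each, a log2 fold change of −0.86 (standard error 0.22, edgeR adjusted p = 0.00917). *Npy1r* had 22.7 TPM and 23.4 TPM in cortex and 8.81 TPM and 10.1 TPM in SCN (−1.26, standard error 0.18, edgeR adjusted p = 0.000110), and *Crhr1*, the main pituitary and cortical receptor for corticotropin-releasing hormone, 11.0 TPM and 11.2 TPM in cortex and 3.13 TPM and 3.58 TPM in SCN (−1.75, standard error 0.31, edgeR adjusted p = 0.000687). *Oxtr* did not pass, at a log2 fold change of −1.08 (standard error 0.40, edgeR adjusted p = 0.0567). Between the SCN pools none of the 13 receptor genes expressed was past 2-fold on log2 of TPM plus 1, and 11 were above 0, beside 53.3% of all genes, with a median of 0.18 against 0.02 over all genes. Markers of neurons in general were above 0 in 6 of 6 genes (median 0.18) and those of GABA and glutamate neurons in 4 of 4 (0.14), while those of oligodendrocytes were in 0 of 5 (−0.21). Astrocyte markers were above 0 in 3 of 4 (0.08) and SCN markers in 1 of 7 (−0.48). Whether the pools differed in their cell types was not tested.

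Peptide precursors are cut and amidated by a shared set of enzymes and packed into granules with granins. Of 10 such processing genes tested, *Qpct* and *Scg2* were called higher in SCN and *Pcsk2*, *Cpe* and *Chgb* lower, with a median of −0.13. *Scg2*, which encodes secretogranin II, had 221 TPM and 207 TPM in cortex and 748 TPM and 827 TPM in SCN (log2 fold change 1.88, standard error 0.10, edgeR adjusted p = 3.87e-09). *Pcsk2*, which encodes a prohormone convertase, had 264 TPM and 271 TPM in cortex and 69.8 TPM and 72.3 TPM in SCN (−1.91, standard error 0.09, edgeR adjusted p = 2.52e-09). *Pcsk1*, the other main convertase, did not pass, at 45.9 TPM and 60.5 TPM in cortex and 40.4 TPM and 53.5 TPM in SCN (−0.17, standard error 0.10, edgeR adjusted p = 0.219). Between the SCN pools 9 of the 10 were above 0, beside 53.3% of all genes, with a median of 0.16, and none past 2-fold. Markers of neurons in general were above 0 in 6 of 6, of astrocytes in 3 of 4, of the SCN in 1 of 7 and of oligodendrocytes in 0 of 5. The part of cell types in this was not tested. With 1 library left out of the fit with liver, the processing genes called numbered 0 without wild-type cortex or *duper* cortex, where edgeR gave 4 and 3 an unadjusted p under 0.05, 2 without wild-type SCN and 3 without *duper* SCN, whereas the brain libraries alone, less 1 and with tissue as the only term, gave 4 or 5.

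Of 4 genes for peptide breakdown and receptor partners tested, *Mrap2* and *Dpp4* were called higher in SCN and *Trhde*, which encodes the enzyme that degrades thyrotropin-releasing hormone, lower, with a median of 0.57. DESeq2 called 1 of these 4, as did a fit of all 6 libraries. *Mrap2*, which encodes an accessory protein of melanocortin receptors, had 13.6 TPM and 18.7 TPM in cortex and 59.2 TPM and 56.7 TPM in SCN (log2 fold change 1.83, standard error 0.16, edgeR adjusted p = 6.78e-07). *Dpp4*, a peptidase gene whose product shortens neuropeptide Y, was the 1 gene of the list past 2-fold between the SCN pools. It had 13.3 TPM in the wild-type pool and 3.73 TPM in the *duper* pool, from 435 and 29 counts, and 3.59% of all genes were that much lower. Of 7 genes for sensing leptin, ghrelin and other hormones by peptide neurons, 4 were called higher in SCN (*Lepr*, *Ghsr*, *Prlr* and *Esr1*), with a median of 0.72. DESeq2 called 2 of these 7, and a fit of all 6 libraries called 1. The estrogen receptor gene *Esr1* had 0.669 TPM and 1.09 TPM in cortex and 6.79 TPM and 7.25 TPM in SCN (2.88, standard error 0.28, edgeR adjusted p = 2.45e-06), and between the SCN pools no gene of this list was past 2-fold. With 1 library left out in the same way, the genes for breakdown and receptor partners called numbered 0 without wild-type cortex, where edgeR gave 2 an unadjusted p under 0.05, 1 without wild-type SCN or *duper* cortex and 2 without *duper* SCN. The hormone sensing genes called numbered 3 without *duper* SCN and 1 without each other brain library. From the brain libraries alone, less 1 and with tissue as the only term, the counts were 1 without *duper* cortex, 2 without wild-type SCN and 3 without either other library for breakdown and receptor partners, and 3 or 4 for hormone sensing.

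Markers of the regions around the SCN were set beside the peptide genes. In the edgeR test 3 of 5 arcuate, 3 of 5 lateral hypothalamic, 1 of 3 paraventricular and supraoptic, and 2 of 3 ventromedial and dorsomedial genes tested were called higher in SCN. Called lower were *Tacr3*, the neurokinin B receptor gene, of the lateral hypothalamic list (log2 fold change −2.07, standard error 0.19, edgeR adjusted p = 1.55e-06) and *Arnt2* of the paraventricular list (−0.65, standard error 0.09, edgeR adjusted p = 5.72e-05). Of genes enriched in hypothalamus at large 7 of 8 were called higher, and of SCN markers 7 of 7, whose median was 4.24, or 2.08 with *Nms*, at 0 in cortex, taken at its bound from 3 counts per library. In the SCN list *Prok2* had too few counts, and *Avp*, *Vip* and *Grp* had no row. The 7 cortical projection neuron genes tested were called lower. With at least 10 counts in every brain library, fewer marker genes were tested. Called in either direction were then 1 of 3 arcuate, 3 of 3 lateral hypothalamic, 1 of 2 paraventricular and 2 of 2 ventromedial genes. Of the hypothalamus-enriched list 6 of 7 were called, of SCN markers 3 of 3 and of cortical projection neuron genes 4 of 4. When 1 brain library at a time was left out of the fit with liver, the genes called in either direction came to 1 to 5 for the SCN, 0 or 1 for the arcuate, 1 to 3 for the lateral hypothalamic and 3 to 5 for the hypothalamus-enriched list, and to 0 for the paraventricular and ventromedial lists. With all 6 libraries in that fit they numbered 6, 2, 4 and 6, and 1 for each of the last 2 lists. From the brain libraries alone, less 1 and with tissue as the only term, they came to 6 or 7 for the SCN, 3 to 5 for the arcuate, 4 for the lateral hypothalamic, 6 to 8 for the hypothalamus-enriched, and 2 or 3 for each of the paraventricular and ventromedial lists.

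In the lateral hypothalamic list, 5 of 6 genes with a row, 3 were higher in *duper* SCN, beside 53.3% of all genes. The other 2 were lower, as was *Pmch*. The summed TPM of the list was 256 in wild-type SCN and 305 in *duper* SCN, and 47.4 and 50.8 in cortex. None of its genes was past 2-fold or at 0, and its most abundant gene, the dynorphin precursor *Pdyn*, had 108 TPM in wild-type SCN and 148 TPM in *duper* SCN. *Gal*, the galanin gene, had 101 TPM and 95.3 TPM.

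Of the SCN list, 6 of 7 expressed genes were lower in *duper* SCN, beside 46.7% of all genes, with a median log2 ratio of −0.48 and no test. *Nms* alone was past 2-fold, and none of the 8 was at 0 in either SCN pool. *Nms* was the most abundant in wild-type SCN, at 33.5 TPM, and *Rgs16* in *duper* SCN. *Rgs16* had 24.8 TPM in wild-type SCN and 23.2 TPM in *duper* SCN, and *Zfhx3* 16.9 TPM and 17.6 TPM. The VIP receptor gene *Vipr2* had 12.5 TPM and 6.32 TPM. Of the choroid plexus and ependyma genes, *Ttr*, which encodes the thyroid hormone carrier transthyretin and was the most abundant of the 5 with a row, had 165 TPM in wild-type SCN and 24.1 TPM in *duper* SCN. That list summed to 185 TPM and 46.1 TPM in the SCN pools and to 1868 TPM and 2532 TPM in cortex, with no gene at 0. Its difference between the SCN pools was that of *Ttr*: without it the list summed to 19.4 TPM in wild-type SCN and 22.0 TPM in *duper* SCN, and *Clic6* had 9.08 TPM and 13.1 TPM. The part of these tissues in the *Pmch* difference was not tested.

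Of the arcuate list, 8 genes, 5 of 6 expressed were higher in *duper* SCN, beside 53.3% of all genes, with a median log2 ratio of 0.29 and no test. *Nhlh2* was lower, at 7.95 TPM against 9.20 TPM. Past 2-fold was only *Kiss1*, the kisspeptin gene, at 1.89 TPM in wild-type SCN and 15.3 TPM in *duper* SCN, from 13 and 25 counts (8.11 times, 95% interval 3.99 to 17.3). The list summed to 101 TPM in wild-type SCN and 152 TPM in *duper* SCN, and to 44.0 TPM and 58.5 TPM in cortex. Its most abundant gene, the neurokinin B gene *Tac3*, had 47.1 TPM and 74.7 TPM in the SCN pools, and *Slc6a3* was at 0 in *duper* SCN.

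*Pomc* is also the main precursor of pituitary corticotrophs and melanotrophs, and a marker of pituitary and pars tuberalis, *Cga*, differed between the SCN pools as well. *Cga*, the shared subunit gene of the glycoprotein hormones, had 0.168 TPM in wild-type SCN and 47.9 TPM in *duper* SCN, from 1 and 82 counts (285 times, 95% interval 49.7 to 11392), and 0 counts in both cortex libraries. The list, 8 of 9 genes with a row, summed to 7.29 TPM in wild-type SCN and 57.1 TPM in *duper* SCN, and to 3.02 TPM and 7.49 TPM in cortex. Without *Cga* it summed to 7.12 TPM in wild-type SCN and 9.20 TPM in *duper* SCN. *Pitx1* and *Pou1f1* were at 0 in *duper* SCN, where *Tshb* had 2 counts, *Fshb* 4.01, *Gh1* 2 and *Tbx19*, a factor of pituitary *Pomc* cells, 1. In wild-type SCN 6 of the 8 were at 0, and *Lhb*, at 7.12 TPM, was the most abundant; in *duper* SCN *Lhb* had 5.46 TPM. The part of arcuate or pituitary tissue in the *Pomc* difference was not tested.

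For *Crh* the paraventricular and supraoptic list, 4 of 5 genes with a row, gave 170 TPM in wild-type SCN and 182 TPM in *duper* SCN, and 248 TPM and 254 TPM in cortex, most of it *Arnt2*. *Sim1*, which marks paraventricular neurons, had 7.95 TPM in wild-type SCN and 6.34 TPM in *duper* SCN, and *Ucn3*, the urocortin 3 gene, 1.55 TPM and 11.0 TPM, from 25 and 42 counts (7.09 times, 95% interval 4.22 to 12.1). The ventromedial and dorsomedial list, beside *Npvf*, summed to 62.3 TPM and 59.6 TPM in the SCN pools. Hypothalamus-enriched genes as a whole summed to 531 TPM in wild-type SCN and 552 TPM in *duper* SCN, and none of these 8 was past 2-fold between the SCN pools. The SCN pools thus held hypothalamic genes at large at similar levels.

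**Figure D3:**
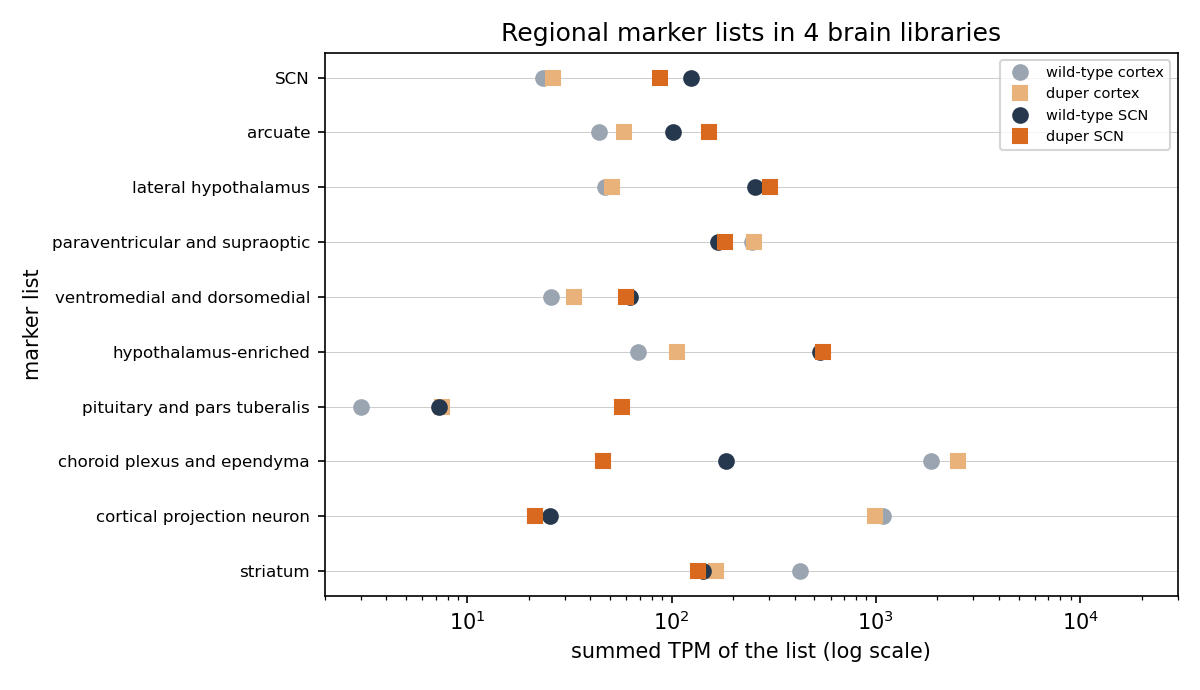
Summed TPM of 10 regional marker lists in the 4 brain libraries, on a log axis, with 1 point for each library and no error bar, since each group is 1 library. The hypothalamus-enriched list lies at 531 TPM and 552 TPM in the SCN pools, while the pituitary and pars tuberalis list lies at 7.29 TPM in wild-type SCN and 57.1 TPM in *duper* SCN, of which *Cga* is 47.9 TPM.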

How the data were processed

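The authors assigned reads of a stranded mRNA kit to transcripts of the hamster genome MesAur2.0 with Kallisto and added them up per gene. They deposited estimated counts, not normalized, and TPM per gene, and, for every transcript of a library, its estimated count, TPM and its full and effective length. These deposited lengths, an other kind of value, gave the TPM of 1 count where a gene had 0. Of 31593 genes, 31590 matched BCM_Maur_2.0 by symbol, which was used for names and neighbouring genes.

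Log2 ratios used TPM plus 1, for genes whose mean over the compared libraries reached 1 TPM. Estimated counts were rounded for edgeR 4.0.16 (R 4.3.3; TMM, filterByExpr by tissue, quasi-likelihood F test, tissue and genotype). Standard errors are the size of the log2 fold change over the root of F. DESeq2 1.42.0 was an alternative. Intervals came from scipy 1.17.1.

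The members and lists (5 of pathway genes, 18 of markers) were chosen with earlier results of these data known. Genes named are these, *Cry1*, LOC101830314 as the neighbour that overlaps *Pmch*, and the 3 most like profiles of each member with at least 50 counts in an SCN library.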

Additional observations from a re-analysis of the deposited data

Results flagged for a closer look

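*Npy* differed between genotypes in opposite directions in 2 tissues. Its log2 ratio of *duper* over wild type, with 1 TPM added, was 1.17 in SCN and −1.01 in cortex. Each value rests on 1 library per genotype, and the difference between the tissues was not tested.

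Some peptide genes had more than 3 counts in liver, where their levels are not given above. *Npy* had 18 counts in wild-type liver and 4 in *duper* liver. *Pomc* had 5 in wild type and 8 in *duper*. *Pmch* had 4.86 and *Hcrt* 5 in *duper* liver. These are levels from 0.162 to 1.03 TPM in libraries of 69839214 and 85748562 counts.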

How the results depend on the processing

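Of 75 alternative log2 ratios of the members with a count in either library, 71 stayed within their counting interval and the sign changed in 0. Adding 0.1 TPM in place of 1 cannot change a sign. Where a library had 0 counts the interval was open-ended, so staying within it shows little. The other 4 of the 75 were nearer to 0 with TMM-normalized CPM, to which 1 was also added. They were *Pmch* in both comparisons of SCN with cortex and *Pomc* and *Npy* in that of wild type. With at least 10 counts in each library, which fewer genes reach, 1 of 3 members was higher in SCN in each genotype (beside 4.78% of all genes in wild type and 3.85% in *duper*) and 1 of 5 was lower in *duper* SCN (0.753%). With TMM-normalized CPM 1 was higher in *duper* SCN (0.486% of all genes) and 1 lower (0.880%), and over 4-fold 0 were higher (0.989%) and 1 lower (1.41%). TPM divided by the TMM factors left 2 higher (2.63%) and 2 lower (3.20%), as in the main count.

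Library size in place of TMM called 2431 genes higher in SCN and 1439 lower, against 1569 and 1973, and moved the median of all genes by 0.17. With no fold threshold 5339 genes were called. With at least 10 counts in every brain library 7 receptor genes were called, of 9 tested. DESeq2 called 1 gene for breakdown and receptor partners and 2 for hormone sensing. With no filter 11 other neuropeptide genes were called, of 17. A fit of all 6 libraries called 2091 genes, 6 receptor genes, 1 for breakdown and receptor partners and 1 for hormone sensing; the cause was not tested.

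With tissue and genotype, 4 brain libraries less 1 leave no residual degrees of freedom, so libraries were left out of the fit with liver, where a lone pool is assumed to vary like the other groups. It called 356 genes without wild-type cortex, 737 without wild-type SCN, 524 without *duper* cortex and 1408 without *duper* SCN. The ranges were 1 to 4 receptor genes, 0 to 3 for processing, 0 to 2 for breakdown and receptor partners, 1 to 3 for hormone sensing and 2 to 4 other neuropeptides. The processing genes called were 0 without either cortex library, where edgeR gave 4 (wild type) and 3 (*duper*) an unadjusted p under 0.05. Of genes for breakdown and receptor partners 0 were called without wild-type cortex, where 2 had such a p. With tissue alone and no liver, chosen after seeing the data and with the same assumption, leaving out 1 brain library called 3046 to 3716 genes, with 8 to 11 receptor genes, 4 to 5 for processing, 1 to 3 for breakdown and receptor partners, 3 to 4 for hormone sensing and 5 to 9 other neuropeptides; why the fit with liver called fewer was not tested. Of the marker lists, before these, 149 counts were within 1.5 times the main count and 67 were not. The genotype term pairs SCN with cortex, whose RNA came from the same hamsters; without it, unpaired, 3441 genes were called, against 3542, and 2 striatal genes, against 4. No paired analysis of single hamsters was possible because their RNA was pooled. Depth limits *Hcrt* and *Npvf* most.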

Other observations

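Other neuropeptide genes, 17 of 20 with a row, came to 900 TPM in wild-type SCN and 1086 TPM in *duper* SCN. In the edgeR test 5 of 13 were called higher in SCN than cortex (*Gal*, *Nts*, *Pdyn*, *Vgf* and *Nucb2*) and 2 lower (*Sst* and *Cck*), with a median log2 fold change of 0.61. With 1 library left out of the fit with liver, 3 were called without wild-type cortex or wild-type SCN, 2 without *duper* cortex and 4 without *duper* SCN; from the brain libraries alone, less 1 and with tissue as the only term, 5 without *duper* SCN, 9 without wild-type SCN and 8 without either cortex. *Pdyn* had 17.2 TPM and 9.11 TPM in the wild-type and *duper* cortex and 108 TPM and 148 TPM in the SCN of each (3.32, standard error 0.22, edgeR adjusted p = 6.30e-08). *Cck*, the cholecystokinin gene, had 741 TPM and 603 TPM in cortex and 71.3 TPM and 41.3 TPM in SCN (−3.54, standard error 0.15, edgeR adjusted p = 6.24e-10). Between the SCN pools 2 of 16 expressed genes were past 2-fold, *Ucn3* and *Kiss1*, both higher in *duper*, beside 3.15% of all genes higher and 3.59% lower.

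Of the remaining marker lists, genes called higher in SCN were 2 of 4 for preoptic tissue, 1 of 1 for mammillary and histamine neurons, 3 of 5 for oligodendrocytes, 2 of 4 for astrocytes and 3 of 4 for GABA and glutamate neurons. Genes called lower were 1 of 4 for preoptic tissue, 3 of 5 for tanycytes and median eminence, 1 of 4 for thalamus, 4 of 7 for striatum, 3 of 5 for choroid plexus and ependyma and 3 of 6 for neurons in general. The 1 pituitary gene tested, *Lhb*, was not called. When 1 brain library at a time was left out of the fit with liver, 0 genes were called of the preoptic, mammillary, thalamic and oligodendrocyte lists, 2 to 3 of tanycytes, 0 to 3 of striatum, 0 to 2 of astrocytes, 0 or 1 of choroid plexus and of pituitary, 1 to 3 of GABA and glutamate neurons and 0 to 3 of neurons in general. From the brain libraries alone, less 1 and with tissue as the only term, these were 2 or 3 preoptic, 1 mammillary, 0 to 3 thalamic, 1 to 4 oligodendrocyte, 3 or 4 tanycyte, 3 to 6 striatal, 2 astrocyte, 2 or 3 choroid plexus, 0 or 1 pituitary, 3 GABA and glutamate and 3 general neuronal genes. The preoptic median of 3.02 is 1.54 with *Hmx2*, at 0 in cortex, at its bound.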
